A study of Homo sapiens with 6 samples.

Results

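POSTN (periostin), MATN2 (matrilin 2), the small leucine-rich proteoglycans DCN, LUM and BGN, OLFML2B, SPARC, TNC, FN1 and THBS1 are 10 genes for secreted proteins of the extracellular matrix, out of 28265 gene symbols measured. RNA sequencing gave their counts in 6 libraries of the established glioblastoma line LN229. The genotype label is wild type in 3 libraries, named control here, and TRIM25 knockdown in the other 3, for which the series' design text names an shRNA. Whether the control cells carried a non-targeting hairpin, whether each group was 1 culture or clone, and when after transduction the RNA was taken are not stated in the labels, so the spread between libraries may be technical. All cells were grown in the same serum-containing medium, and no other treatment is named. The 10 genes were picked by name, with their difference between these same groups in view, so that difference is given below as a description, with no test of the 10 genes. All 10 passed the filter on low counts, which left 14315 genes.

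Matricellular proteins are secreted into the matrix and alter how cells attach, move and receive growth factors, without being main building blocks of its fibres. Small leucine-rich proteoglycans carry a protein core of repeated leucine-rich units with attached sugar chains, bind collagen fibrils and set their thickness and spacing, and hold growth factors such as TGF-beta in the matrix. Tenascin-C, fibronectin and SPARC are known as abundant matrix products of glioblastoma cells.

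The targeted gene went against its label. TRIM25, an E3 ubiquitin ligase gene, had 561, 493 and 563 counts in the control libraries and 964, 905 and 1443 in those labelled knockdown. It was higher in all 3 libraries labelled knockdown (edgeR adjusted p = 3.23e-09; log2 fold change 1.22 ± 0.07, SE). The groups are therefore named by their labels, and no difference can be read as an effect of less TRIM25 mRNA. Whether the labels of the groups were exchanged was not tested; an exchange would turn the direction of every difference given below. Library totals ran from 11349865 to 16404725 counts. Of the glioma and astrocyte markers, S100B, SOX2, NES and VIM had at least 1248 counts in every library, while GFAP had 2 to 8 counts per library, AQP4 0 to 3 and ALDH1L1 0 in all libraries. At an edgeR adjusted p under 0.05, SOX2, OLIG2 and S100B were lower in the libraries labelled knockdown (log2 fold changes -0.66, -0.67 and -0.33). NES was higher (0.27), while VIM and SLC1A3 did not pass. Over the 14315 genes, differences between the groups ran with transcript length (Spearman's rho 0.30, a description across genes). Transcript length here and below means the gene length implied by the deposited FPKM, which need not be that of any single transcript. Of the markers of other cells, the T cell genes CD3D and CD2 were at 0 in all libraries, and PTPRC, a marker of all leukocytes, had 1 to 9 counts.

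The promoter windows are printed for POSTN and OLFML2B, the 2 genes with the largest differences, and for SPARC and THBS1, which differed in the other direction. Each runs from 200 bases before the RefSeq start site to 20 bases after it, 5′ to 3′ on the gene's strand (build GRCh38.p14, RefSeq). Capitals mark matches, on either strand, to the TATA motif TATAAA, the NF-Y motif CCAAT, the Sp1 motif GGGCGG, the AP-1 motif TGACTCA, the SMAD motif CAGACA, the TEAD motif GGAATG or the E-box motif CACGTG.
POSTN, chr13:37598749-37598968, minus strand: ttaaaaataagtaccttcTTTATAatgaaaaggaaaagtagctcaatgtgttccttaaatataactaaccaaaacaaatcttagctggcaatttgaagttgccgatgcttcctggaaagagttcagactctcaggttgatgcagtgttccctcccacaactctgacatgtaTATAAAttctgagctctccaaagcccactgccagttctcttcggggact
OLFML2B, chr1:162023850-162024069, minus strand: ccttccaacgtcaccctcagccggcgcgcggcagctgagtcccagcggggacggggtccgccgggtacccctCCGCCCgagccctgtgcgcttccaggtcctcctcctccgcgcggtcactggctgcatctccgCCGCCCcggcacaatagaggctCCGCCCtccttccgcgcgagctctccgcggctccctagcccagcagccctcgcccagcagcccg
SPARC, chr5:151686896-151687115, minus strand: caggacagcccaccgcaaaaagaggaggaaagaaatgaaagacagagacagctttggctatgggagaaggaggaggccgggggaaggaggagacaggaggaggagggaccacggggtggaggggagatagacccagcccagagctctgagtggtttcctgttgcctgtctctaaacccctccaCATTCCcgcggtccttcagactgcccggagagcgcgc
THBS1, chr15:39580879-39581098, plus strand: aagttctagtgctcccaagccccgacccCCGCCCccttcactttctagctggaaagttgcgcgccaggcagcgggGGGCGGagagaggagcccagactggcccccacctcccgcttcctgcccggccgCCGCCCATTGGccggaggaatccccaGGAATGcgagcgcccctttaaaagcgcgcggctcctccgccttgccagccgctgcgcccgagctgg

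POSTN and OLFML2B shared the direction of their difference but not these letters. The POSTN window was AT-rich, with 39.5% G and C against a median of 59.1% over all windows, and held the TATA motif at positions -29 to -24 and, on the opposite strand, at -182 to -177. The OLFML2B window had 74.5% G and C and held 3 Sp1 motifs and no TATA motif. Of 34785 windows of the same length, 8.98% held the TATA motif and 41.2% the Sp1 motif. The SPARC window held the TEAD motif at -17 to -12, and the THBS1 window at -46 to -41, as did 10.6% of windows at any position. In THBS1 an Sp1 motif at -72 to -67 is followed directly by the NF-Y motif at -66 to -62, so the capitals run together there. Of the 10 genes 7 were in the promoter table. These matches describe letters only and say nothing of binding.

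Of the 10 genes, 5 were lower in the libraries labelled knockdown with no overlap between the groups, 2 were higher with no overlap, and 3 overlapped. Over all tested genes, 19.0% were lower and 18.3% higher without overlap. The differences were unequal in size: POSTN, OLFML2B, MATN2 and DCN were each lower by at least 1.5-fold, as were 3.86% of all tested genes. The other 6 genes lay between -0.20 and 0.15 on the log2 scale. Since the genes were selected on this difference, the counts are not a result about them.

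**Figure D1:**
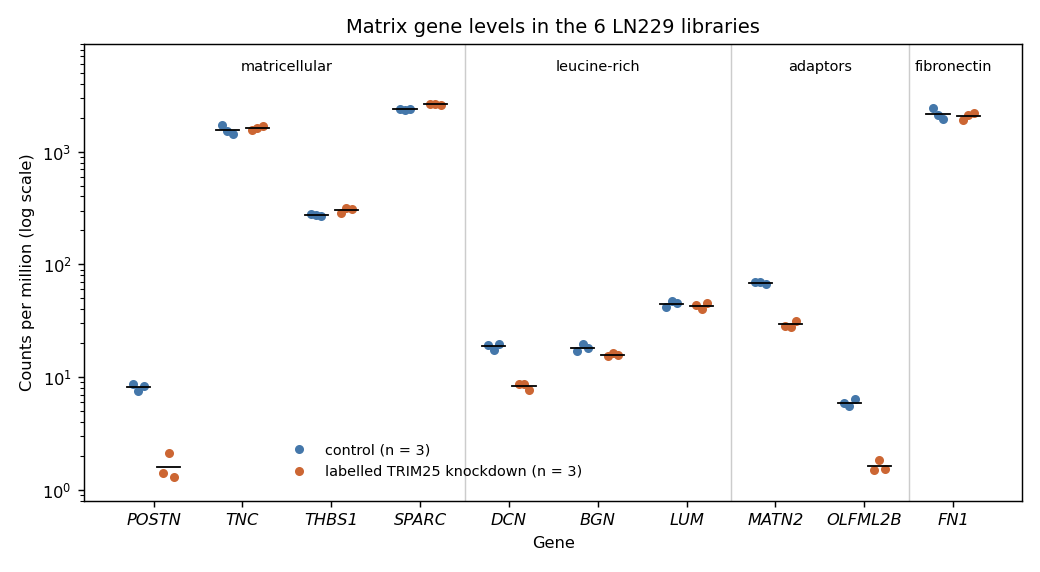
CPM (log axis) of the 10 matrix genes in each library; points are libraries, bars are group means, blue is control and orange labelled knockdown, 3 libraries each. The groups are apart for POSTN, DCN, MATN2 and OLFML2B, with means of 8.13 and 1.61 CPM for POSTN, and lie close together for LUM, TNC and FN1.

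Among the matricellular genes, POSTN stood apart from TNC, THBS1 and SPARC. Periostin binds integrins and collagen and is typical of healing and fibrotic tissue and of tumour stroma. POSTN had 137, 103 and 131 counts in the control libraries and 17, 24 and 21 in those labelled knockdown. In CPM, counts per 1000000 on scaled library sizes, this was 8.62, 7.47 and 8.29 against 1.42, 2.12 and 1.29. Every control library was above every library labelled knockdown, and labelled knockdown replicate 2 was the highest of its group. The group means were 8.13 ± 0.590 and 1.61 ± 0.449 CPM (SD, n = 3 each), a 5.17-fold difference (log2 fold change -2.37 ± 0.18, SE). POSTN was a low-abundance gene in both groups, and with about 20 counts per library its relative spread in the labelled knockdown group (27.9% of the mean) was the widest of the 10 genes.

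Tenascin-C is a large hexameric glycoprotein that weakens cell adhesion to fibronectin. TNC stood at 1707, 1521 and 1439 CPM in the control libraries and at 1565, 1626 and 1697 in those labelled knockdown. The ranges overlapped, with control replicate 1 the highest of the 6 libraries and control replicate 3 the lowest. The log2 fold change was 0.07 ± 0.06 (SE), and without control replicate 1 the groups did not overlap. Thrombospondin 1, an activator of latent TGF-beta and an inhibitor of blood vessel growth, is encoded by THBS1. Its levels were 280, 273 and 267 CPM in the control libraries and 286, 315 and 310 in those labelled knockdown, so the groups just failed to meet (log2 fold change 0.15 ± 0.06, SE). SPARC, a collagen- and calcium-binding glycoprotein that counteracts cell spreading, was measured most precisely. It had 2402, 2348 and 2386 CPM in the control libraries and 2641, 2640 and 2594 in those labelled knockdown. The group means, 2379 ± 28.0 and 2625 ± 26.9 CPM (SD, n = 3 each), were 8.79 times the larger SD apart, although the ratio was only 1.10. In GENCODE v29, SPARC shares 301 bp of exon with the antisense gene CLMAT3 and THBS1 shares 174 bp with an antisense gene. The strand setting of the counting is not given in the sources used here, so reads there cannot be told apart.

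The 3 leucine-rich proteoglycans had unequal differences. Decorin, the best-studied member, binds collagen and TGF-beta. DCN stood at 19.1, 17.3 and 19.8 CPM in the control libraries and at 8.66, 8.75 and 7.73 in those labelled knockdown. The 2 sets were far apart, with means of 18.8 ± 1.27 and 8.38 ± 0.565 CPM (SD, n = 3 each), a 2.25-fold difference (log2 fold change -1.17 ± 0.10, SE). Biglycan is the closest relative of decorin and also signals through Toll-like receptors. BGN levels were 16.98, 19.8 and 18.0 CPM in the control libraries and 15.3, 16.3 and 15.8 in those labelled knockdown. The groups did not overlap, but the gap between their nearest libraries was small (log2 fold change -0.20 ± 0.09, SE). Lumican is the keratan sulfate proteoglycan that keeps collagen fibrils regular in the cornea. LUM had 41.4, 46.9 and 45.4 CPM in the control libraries and 43.2, 40.2 and 45.8 in those labelled knockdown, with overlapping ranges and a log2 fold change of -0.04 ± 0.08 (SE) that was 0.0015 without labelled knockdown replicate 2.

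DCN and LUM lie next to each other on chromosome 12, the only pair of the 10 genes that are neighbours. Their levels per length can be compared in the authors' deposited TPM (transcripts per 1000000, which corrects for gene length). LUM was above DCN in all 6 libraries, 6.41 ± 0.757 times in the control libraries and 13.9 ± 1.84 times in those labelled knockdown (SD, n = 3 each), with no overlap. The size of these ratios, and of the DCN share below, depends on the implied lengths, 7168 bp for DCN and 2671 bp for LUM. Without a length correction, mean CPM of LUM and DCN were 44.6 and 18.8 in the control libraries. In those labelled knockdown they were 43.1 and 8.38. DCN supplied 9.70% ± 1.05 of the summed TPM of DCN, LUM and BGN in the control libraries and 4.88% ± 0.496 in those labelled knockdown. The BGN share was 28.6% ± 0.903 and 28.0% ± 1.57, with overlapping ranges. The sum itself was 74.9 ± 3.03 and 68.9 ± 3.90 TPM, and the ranges overlapped. BTG1, on the other side of DCN, stood at -0.02 ± 0.06 (SE; edgeR adjusted p = 0.833) on the log2 scale, and KERA, the keratocan gene on the other side of LUM, had no count in any library.

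**Figure D2:**
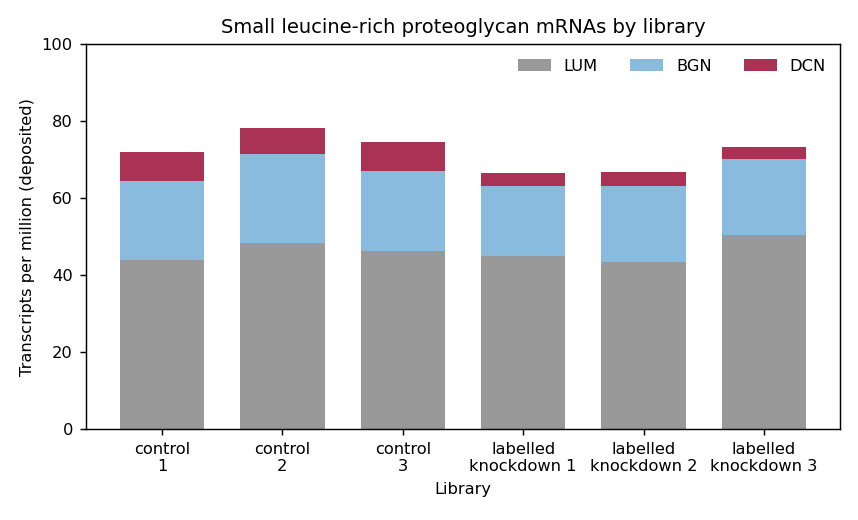
Deposited TPM of LUM, BGN and DCN stacked for each of the 6 libraries. The DCN segment is narrower in the libraries labelled knockdown (3.35 TPM on average against 7.24), while the LUM segment lies between 43.3 and 50.4 TPM in all 6.

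Matrilin 2 and olfactomedin-like 2B are secreted proteins that link other matrix components, matrilins through von Willebrand factor A domains and OLFML2B by binding chondroitin sulfate. MATN2 stood at 69.6, 69.2 and 66.9 CPM in the control libraries and at 28.4, 27.9 and 31.7 in those labelled knockdown. The spread within each group was small beside the gap, with means of 68.5 ± 1.46 and 29.3 ± 2.03 CPM (SD, n = 3 each). This 2.33-fold difference (log2 fold change -1.22 ± 0.07, SE) was the most precise of the 4 large ones, 19.3 times the larger SD. OLFML2B had 93, 76 and 101 counts in the control libraries and 18, 21 and 25 in those labelled knockdown. In CPM these were 5.85, 5.51 and 6.39 against 1.499, 1.86 and 1.53, again without overlap. The difference was 3.65-fold (log2 fold change -1.87 ± 0.18, SE).

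Fibronectin is the adhesive glycoprotein on which cells assemble much of their matrix. FN1 stood at 2450, 2104 and 1960 CPM in the control libraries and at 1925, 2121 and 2200 in those labelled knockdown. The ranges overlapped, and the spread within the control group (11.6% of its mean) exceeded the difference of the means (log2 fold change -0.06 ± 0.07, SE). Without control replicate 1 it was 0.04. FN1 splice forms, such as those with the extra domains, cannot be told apart in gene-level counts.

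**Figure D3:**
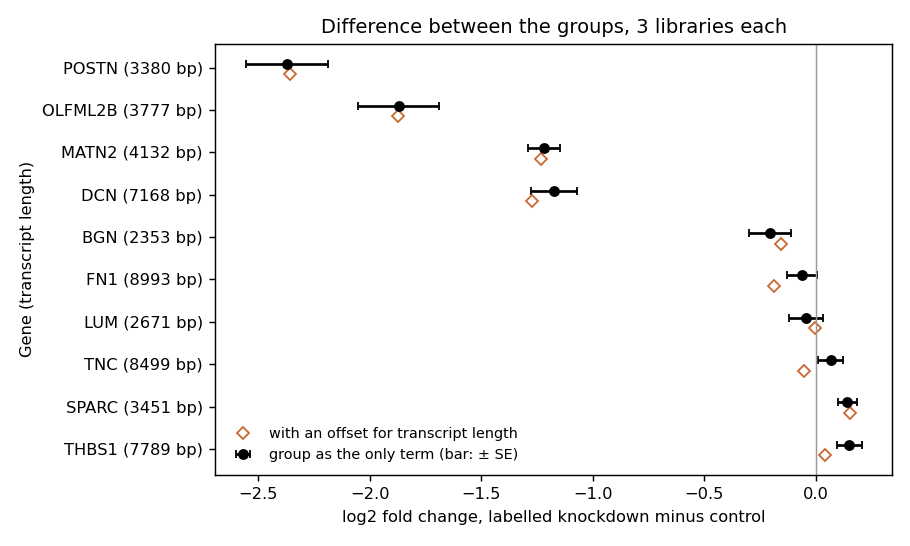
Log2 fold change of each gene, labelled knockdown minus control, with its SE (black) and after an offset for transcript length (orange diamonds). POSTN, OLFML2B, MATN2 and DCN lie between -2.37 and -1.17 and the other 6 between -0.20 and 0.15. The offset moves FN1, TNC, THBS1 and DCN, the genes with the largest implied lengths, to lower values.

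The small differences of long transcripts depended on an offset for transcript length, while the 4 large ones kept their direction and stayed beyond 1.5-fold. Deviations from the group mean followed transcript length within groups as well: rho between a library's deviations and length was 0.41, -0.12 and -0.36 in control replicates 1, 2 and 3, and -0.38, 0.07 and 0.38 in labelled knockdown replicates 1, 2 and 3. FN1, with 8993 bp, deviated from its group mean by 0.18, -0.04 and -0.14 and by -0.11, 0.03 and 0.08 on the log2 CPM scale, in the same order of libraries. TNC, with 8499 bp, ran in that order too, and SPARC, with 3451 bp, deviated by at most 0.02 in any library. With an offset for length, the FN1 log2 fold change was -0.19 and its groups no longer overlapped, that of TNC turned from 0.07 to -0.05, and that of THBS1 fell from 0.15 to 0.04 with overlapping groups. Genes within 1.25-fold of the length of FN1 had a median log2 fold change of 0.14, and those around POSTN one of -0.01. POSTN, OLFML2B and MATN2 stood at -2.36, -1.87 and -1.23 with the offset, and DCN, with an implied length of 7168 bp, at -1.27. Whether DCN transcripts in LN229 have that length was not tested.

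**Figure D4:**
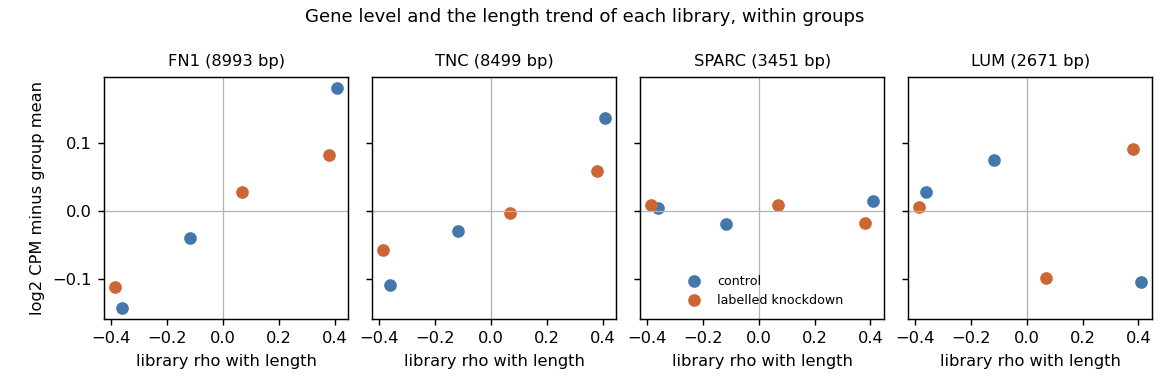
Deviation of log2 CPM from the group mean (vertical axis) against each library's rho with transcript length (horizontal axis) for FN1, TNC, SPARC and LUM; blue is control, orange labelled knockdown. The long transcripts FN1 and TNC rise with the library's rho, from -0.14 to 0.18 for FN1, whereas SPARC stays within 0.02 of 0.

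Per length, the order of the 10 genes by mean level was the same in both groups. In deposited TPM, SPARC was highest with 1909 ± 57.1 in the control and 2179 ± 45.6 in the labelled knockdown libraries (SD, n = 3 each). FN1 (670 ± 92.7 and 664 ± 63.3), TNC (507 ± 56.0 and 550 ± 37.4) and THBS1 (97.2 ± 4.29 and 112 ± 8.35) followed, each range lying below that of the gene above it. SPARC, FN1 and TNC together made up 93.1% ± 0.307 and 94.3% ± 0.109 of the summed TPM of the 10 genes. In the control libraries LUM and MATN2 could not be ordered, at 46.2 ± 2.14 and 45.9 ± 1.85 TPM. In the libraries labelled knockdown LUM, at 46.3 ± 3.70 TPM, was 2.27 times above MATN2, which instead overlapped with BGN (20.4 ± 1.87 and 19.3 ± 1.001). DCN and POSTN overlapped in the control libraries (7.24 ± 0.517 and 6.66 ± 0.577 TPM) and were 2.45-fold apart in those labelled knockdown. The place of DCN in this order depends on its implied length of 7168 bp. POSTN and OLFML2B were lowest there, at 1.36 ± 0.384 and 1.24 ± 0.160 TPM, with overlapping ranges.

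The genes whose log2 CPM ran most like that of POSTN over the 6 libraries, among 10741 genes whose log2 CPM averaged at least 3, were TEX261, ANKZF1, SERPINB6, SAMHD1 and PRELP (Pearson's r from 0.994 to 0.999). The 6 points are the same libraries in 2 separate groups, so this likeness holds the difference between groups. The difference of POSTN was much larger than theirs, whose log2 fold changes ranged from -0.62 for PRELP to -0.26 for TEX261. Among the 10 genes, OLFML2B (0.995) and DCN (0.990) had the closest pattern to POSTN.

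The surrounding matrix genes were read from 7 lists with 156 genes, of which 110 were tested. Genes were called at an edgeR quasi-likelihood adjusted p under 0.05, as were 23.3% of all tested genes, 11.0% lower and 12.2% higher. Of the 110 genes, 21 fell and 19 rose in the libraries labelled knockdown, and 70 were not called. Their median log2 fold change was -0.0047, against -0.0038 over all tested genes. The number of all genes called was 3330, and 1826, 1877 or 1868 without control replicate 2, control replicate 3 or labelled knockdown replicate 2. The lists are described by these counts and medians alone.

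The other leucine-rich proteoglycans were mostly near 0 counts in LN229. Of 14 listed, 3 were tested, and the remaining 11 had at most 7 counts in any library. PRELP, which anchors basement membranes to connective tissue, was the 1 that fell, from 36.5 ± 1.46 to 23.9 ± 0.724 CPM (SD, n = 3 each). This is -0.62 ± 0.08 (SE) on the log2 scale, with an edgeR adjusted p of 2.29e-05. The other 2 were not called, and the median of the 3 was -0.02. TSKU, which encodes the secreted tsukushi, stood at 59.8 ± 3.62 and 59.3 ± 6.04 CPM (SD, n = 3 each) with overlapping groups. It was named outside the rule for list genes.

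Of 14 tested matricellular genes 4 rose, 2 fell and 8 were not called (median 0.08). CCN1, a heparin-binding integrin ligand, rose from 33.3 ± 2.44 to 62.1 ± 2.10 CPM (SD, n = 3 each), which is 0.90 ± 0.07 (SE) on the log2 scale with an edgeR adjusted p of 2.72e-07. Its relative CCN2 rose by 0.34, SPP1, which encodes osteopontin, by 0.35, and THBS2, the closest relative of THBS1, by 0.32 on the log2 scale. CCN5, a CCN protein without the C-terminal domain, fell from 5.43 ± 0.388 to 3.36 ± 0.710 CPM (SD, n = 3 each), which is -0.71 ± 0.17 (SE) on the log2 scale. TGFBI, the fasciclin-domain relative of POSTN, was far more abundant than POSTN at 412 ± 7.77 and 364 ± 6.51 CPM and fell by 0.18 on the log2 scale. Its call was lost without control replicate 2 or labelled knockdown replicate 2 (edgeR adjusted p = 0.0872 at the lowest). SPOCK1, a SPARC-family proteoglycan, stood at -0.09 ± 0.07 (SE) and was not called.

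Of the 7 tested matrilins, olfactomedins and related genes, 4 fell and 3 were not called (median -0.38). OLFML2A, the closest relative of OLFML2B, fell from 41.1 ± 1.17 to 20.4 ± 2.25 CPM (SD, n = 3 each), which is -1.002 ± 0.09 (SE) on the log2 scale with an edgeR adjusted p of 3.86e-07. MATN3, a cartilage matrilin, fell by 0.77, OLFML3 by 0.38 and VIT, a gene with von Willebrand factor A domains, by 0.59 on the log2 scale. These 3 had no more than 159 counts in any library. The MATN3 call was lost without control replicate 2 or labelled knockdown replicate 3 (edgeR adjusted p from 0.0595 to 0.0862). That of OLFML3 was lost without any 1 library except labelled knockdown replicate 1 (0.0550 to 0.115), and that of VIT without any 1 except labelled knockdown replicate 3 (0.0533 to 0.111). The count of 4 was thus 1 without control replicate 2 and 2 without control replicates 1 or 3 or labelled knockdown replicates 2 or 3.

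The large and cell-surface proteoglycans held the largest fall of any list. Of 21 tested, 7 fell, 4 rose and 10 were not called (median -0.21). GPC4, a glypican that carries heparan sulfate on the cell surface, had 94, 83 and 89 counts in the control libraries and 14, 9 and 14 in those labelled knockdown. It fell from 5.85 ± 0.201 to 0.940 ± 0.198 CPM (SD, n = 3 each), which is -2.63 ± 0.21 (SE) on the log2 scale with an edgeR adjusted p of 1.90e-07. GPC3, its neighbour on chromosome X, had 18, 15 and 23 counts against 2, 2 and 0 and was also called (edgeR adjusted p = 0.000214). Its log2 fold change, -3.49 ± 0.55 (SE), was the largest fall in the lists and rests on these few counts. The syndecan genes SDC1 and SDC2, cell-surface heparan sulfate proteoglycans, fell by 0.57 and 0.52, and SDC3 by 0.41 on the log2 scale. TGFBR3, the betaglycan gene, fell by 0.38, and GPC1 by 0.21, a call lost without control replicates 2 or 3 or labelled knockdown replicates 2 or 3 (edgeR adjusted p from 0.153 to 0.225). In the other direction, CSPG4, the NG2 proteoglycan of glial progenitors, rose from 382 ± 14.3 to 573 ± 29.6 CPM (SD, n = 3 each), which is 0.58 ± 0.06 (SE) on the log2 scale with an edgeR adjusted p of 1.28e-06. HSPG2 (perlecan), VCAN (versican) and PTPRZ1 rose by 0.48, 0.41 and 0.40 on the log2 scale. These are long genes (14344, 12416 and 8206 bp), and their lowest values over all alternatives, which include the length offset, were 0.32, 0.26 and 0.29. For CSPG4, with 8290 bp, the lowest was 0.47. The VCAN groups overlapped, and its call was lost with DESeq2. CSPG4, HSPG2 and VCAN share 563, 1658 and 453 bp of exon with genes on the opposite strand. GPC3, SDC3, TGFBR3, GPC1 and PTPRZ1 were named after their values were seen.

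Of 25 tested genes of elastic fibres, basement membranes and adhesive glycoproteins, 4 rose, 2 fell and 19 were not called (median 0.08). The fibrillin gene FBN1 rose by 0.76, from 69.5 ± 9.12 to 117 ± 11.8 CPM (SD, n = 3 each). It is a long gene (11609 bp) and ran from 0.61 to 0.87 over all alternatives, which include the length offset. EFEMP1, which encodes fibulin 3, fell by 0.68, from 248 ± 2.13 to 155 ± 3.58 CPM (SD, n = 3 each), with an edgeR adjusted p of 2.51e-07. The nidogen gene NID1 rose by 0.24, LTBP3, named after its value was seen, by 0.27, and LAMB3 by 0.29, while LAMA5 fell by 0.41. Calls were lost for LTBP3 without control replicate 2 (edgeR adjusted p = 0.0549), for LAMB3 without any control replicate or labelled knockdown replicate 3 (0.0585 to 0.105), and for LAMA5 without control replicates 1 or 2 or labelled knockdown replicates 2 or 3 (0.0539 to 0.160). The count of 2 that fell was 7 without labelled knockdown replicate 1, and 1 without control replicate 2 or labelled knockdown replicates 2 or 3. The count of 4 that rose was 7 without labelled knockdown replicate 1 and 2 without control replicate 2. The abundant laminin genes LAMC1 and LAMB1 had log2 fold changes of 0.08 ± 0.06 and 0.02 ± 0.05 (SE), signs that turned with the length offset.

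Receptors that bind the 10 proteins included the largest rise. Of 18 tested, 5 rose, 1 fell and 12 were not called (median 0.09). ITGB3, the beta subunit of the integrin that binds periostin, osteopontin and fibronectin, rose from 275 ± 12.7 to 573 ± 36.8 CPM (SD, n = 3 each), which is 1.06 ± 0.06 (SE) on the log2 scale with an edgeR adjusted p of 3.23e-09. Another gene model covers 2266 bp of its exons in the same orientation. Its name is not among the deposited gene symbols, and how shared reads were counted is not given. ITGA5 and ITGB1, which form the main fibronectin receptor, rose by 0.43 and 0.28, and MET, a growth factor receptor that decorin can bind, by 0.36 on the log2 scale. ITGA9, a tenascin-C receptor subunit, rose by 0.31 and shares 225 bp of exon with a gene on the opposite strand. Its call was lost without control replicates 2 or 3 (edgeR adjusted p from 0.0630 to 0.0775). ITGB5, named after its value was seen, fell by 0.20, a call lost without control replicates 1 or 3 or labelled knockdown replicate 2 (0.0643 to 0.156). The hyaluronan receptor gene CD44 stood at 0.02 ± 0.05 (SE) on the log2 scale, a sign that turned with the length offset, and CALR, which encodes a chaperone that also binds thrombospondin at the cell surface, at -0.08 ± 0.05 (SE).

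Enzymes that build glycosaminoglycan chains or process propeptides moved both ways: of 22 tested, 4 fell, 2 rose and 16 were not called (median -0.06). CHST11, a chondroitin 4-O-sulfotransferase gene, rose from 96.7 ± 6.10 to 146 ± 3.23 CPM (SD, n = 3 each), which is 0.59 ± 0.06 (SE) on the log2 scale with an edgeR adjusted p of 4.50e-06. CHST12, of the same activity, fell by 0.43 on the log2 scale. CHST14, the dermatan 4-O-sulfotransferase gene, named after its value was seen, fell by 0.33. CSGALNACT2, which starts chondroitin chains, rose by 0.39. PCOLCE, an enhancer of procollagen C-proteinase, fell by 0.34 and shares 292 bp of exon with an antisense gene. CHSY1, a chondroitin synthase gene, fell by 0.18, a call lost without any 1 library except labelled knockdown replicate 3 (edgeR adjusted p from 0.0673 to 0.188). CHPF, the chondroitin polymerising factor gene, stood at 0.02 ± 0.08 (SE), a sign that turned without control replicates 1 or 2 or labelled knockdown replicate 1. BMP1, the protease that trims the biglycan propeptide, was not called (0.13 ± 0.07, SE) and was named after its value was seen.

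**Figure D5:**
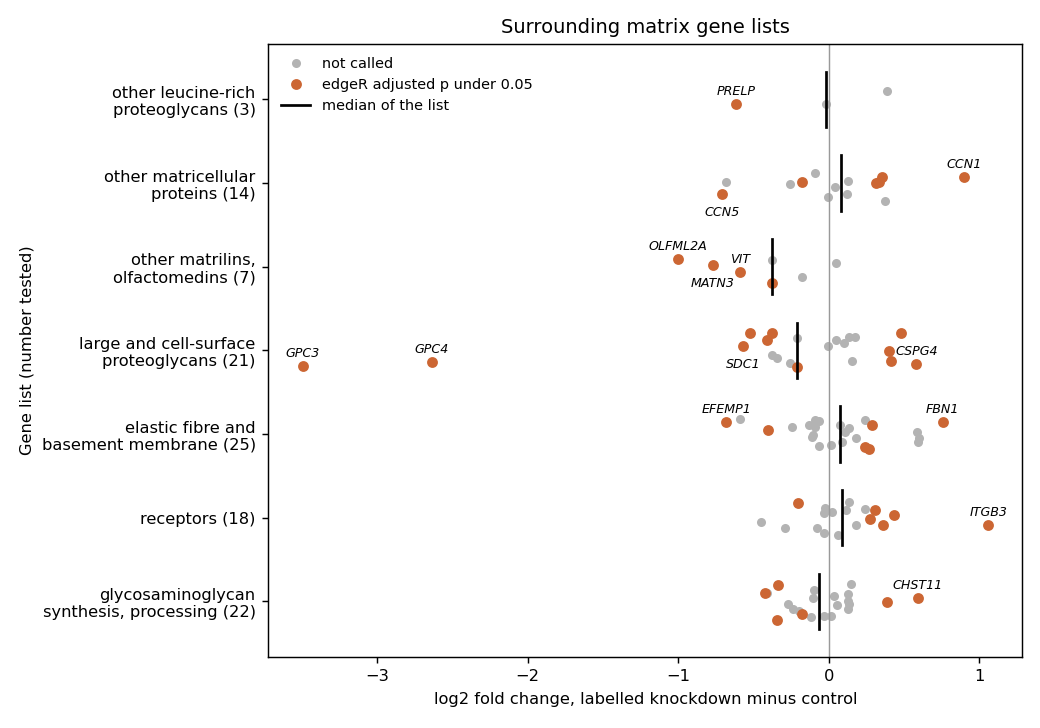
Log2 fold change of every tested gene in the 7 surrounding lists, labelled knockdown minus control; orange points passed an edgeR adjusted p of 0.05, grey points did not, and black bars are list medians. GPC3 and GPC4 lie farthest to the left and ITGB3 (1.06) farthest to the right; list medians run from -0.38 to 0.09.

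DCN, LUM and POSTN are also widely used markers of fibroblasts, so genes of fibroblasts and pericytes were read beside them. In such bulk libraries, fewer cells of a type and less RNA per cell cannot be told apart. Of 8 such markers, 7 were tested, and 3 fell and 2 rose. Their summed TPM was 153 to 164 in the control libraries and 173 to 187 in those labelled knockdown. FAP averaged 64.4 and 84.3 TPM and ACTA2 79.2 and 82.1 TPM, so that sum is mostly FAP and ACTA2. PDGFRB fell (log2 fold change -0.37), and ACTA2 and PDGFRA were not called. THY1 had 27, 23 and 21 counts against 5, 3 and 8, and COL1A1 had 83, 75 and 84 against 50, 29 and 64. COL1A2 had 2 to 11 counts in any library. FAP and RGS5 were higher, from 62.7 ± 0.834 to 79.3 ± 4.21 CPM for FAP (SD, n = 3 each). Of the macrophage and microglia genes, CD68 and ITGAM rose and AIF1 was at 0 in all libraries. The summed TPM of all 8 was 73.3 to 77.4 in the control and 101 to 120 in the labelled knockdown libraries. CD68 alone averaged 72.9 and 106 TPM, so that sum is nearly all CD68. ITGAM had 13 to 41 counts per library, and CSF1R, CD14, P2RY12, C1QA and PTPRC had at most 18. The part of these markers in the differences of DCN and POSTN was not tested.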

How the data were processed

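Total RNA of LN229 cells was sequenced from libraries of a stranded kit, per the labels' protocols. Tools named in the submitters' processing notes are FastQC, Trim Galore, HISAT2 and MultiQC, with build hg19. How reads were counted, with which strand setting and annotation, is not given in the sources used here. The deposited counts are whole reads per gene symbol, not normalised. The FPKM values deposited by the authors imply whole gene lengths (within 0.001 bases) for all 21754 genes with a count, and served for lengths only. The TPM deposited by the authors sum to 1000000 per library and served for levels per length.

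The 10 genes and all lists were chosen with earlier results of these data known. The test was edgeR 4.0.16's quasi-likelihood test (glmQLFit, glmQLFTest; R 4.3.3) with 1 term, the group, and all 6 libraries. The filter filterByExpr left 14315 genes, and TMM factors ran from 0.995 to 1.00, with Benjamini-Hochberg adjustment over all tested genes. The SE is the log2 fold change divided by the square root of F. CPM use TMM-scaled library sizes. Lists were compiled from general knowledge and described by counts and medians, with no set test. Named list genes were the up to 4 called genes per list with the largest change, groups not overlapping and log2 CPM averaging at least 1, plus up to 3 whose log2 CPM averaged at least 6; others are marked. Log2 CPM for likeness and deviations used a prior count of 2. No 2 libraries of 1 group were alike within sampling noise (chi-square over its degrees of freedom, 1.95 to 8.54). Simulated data for this comparison (14215 genes tested) gave calls for 90 of 100 genes set at 1.5-fold and for 99 of 100 set at 2-fold. It also called 17 unchanged genes. The changed genes were drawn above a minimum mean count and the simulated noise held no length trend, so recovery of low-count or long genes was not measured. Alternatives were DESeq2 1.42.0 and its size factors, limma-voom 3.58.1, no filter, each library left out, a replicate block and a length offset.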

Additional observations from a re-analysis of the deposited data

How the results depend on the processing

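POSTN, OLFML2B, MATN2, DCN and BGN were lower without overlap under all 13 alternatives, and 5 genes were so in every fit that left out 1 library (lowest 5, highest 5). For limma-voom and the replicate block, overlap was read from the CPM of the main fit, so it could not differ. Groups already apart can hardly come to overlap when 1 library is left out, so these fits add little. The log2 fold change of POSTN ran from -2.59 to -2.20, that of OLFML2B from -1.96 to -1.81, of MATN2 from -1.28 to -1.18, of DCN from -1.27 to -1.11 and of BGN from -0.25 to -0.14. The number of genes higher without overlap was 1 with the length offset and 1 with the replicate block and length offset, in place of 2, because THBS1 then overlapped (0.04 in both). Without 1 library it was 2 to 3. LUM, TNC and FN1 changed sign with single alternatives: LUM ran from -0.09 to 0.0015, TNC from -0.05 to 0.14 and FN1 from -0.19 to 0.04.

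The number for all genes called was 1826 to 4941 without 1 library and 1891 with the replicate block, against 3330; with no filter, DESeq2, its size factors, limma-voom and the length offset they lay between 2440 and 3674. In the 7 lists together, 14 to 28 fell and 16 to 27 rose over all alternatives. Deviations of same-numbered libraries correlated at -0.19, 0.0082 and -0.22, and no library correlated best with its own number. Since these deviations also followed length within groups, they cannot show whether same-numbered libraries shared a day or batch. With the replicate block, 1 matricellular gene fell in place of 2, 2 matrilin and olfactomedin genes in place of 4 and 0 receptor genes in place of 1. With the block and the length offset, 1 matricellular gene fell. Calls were lost with DESeq2 for CHSY1, GPC1, LAMA5, LAMB3, MATN3, OLFML3, VCAN and VIT, and with the block for CHSY1, GPC1, ITGB5, LAMB3, OLFML3, TGFBI and VIT. With DESeq2, 1 matrilin or olfactomedin gene fell in place of 4 and 1 elastic fibre or basement membrane gene in place of 2. With the length offset, 4 receptor genes fell in place of 1. Without 1 library, receptors that fell numbered 0 to 1 and matricellular genes that fell 1 to 2.

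Signs turned for 4 genes that were not called: with the length offset, the log2 fold change of CD44 was -0.0511, the log2 fold change of LAMB1 -0.0375 and the log2 fold change of LAMC1 -0.0327, and with the replicate block and length offset at -0.0512, -0.0373 and -0.0320. Without 1 library CHPF ran from -0.11 to 0.10 and LAMB1 from -0.0046 to 0.0483. The cause of these changes was not tested. POSTN, OLFML2B, GPC4 and GPC3 rest on 25 counts or fewer per library labelled knockdown, which limits the precision of their fold changes.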
